A study of Mus musculus with 13 samples.

Results

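The Hippo pathway was read in 4T1 cells through 10 of its genes, in 6 lists of chromatin immunoprecipitation sequencing (ChIP-seq) peaks. The genes were chosen by symbol and not by a measured value, though with earlier results of these data known. They were Yap1, Wwtr1, Tead1, Tead2, Tead3, Tead4, Lats1, Lats2, Amotl1 and Amotl2. They were 10 of the 18562 genes that any of the lists named and 10 of the 12197 genes with a peak of trimethylated histone H3 lysine 4 (H3K4me3) at the transcription start site (TSS) in both sg-Ctrl and Nup210 KO cells. 4T1 is a metastatic mammary tumor cell line of BALB/cJ origin. Nup210 encodes a membrane glycoprotein of the nuclear pore complex. The sg-Ctrl cells carried a control guide RNA with Cas9, and the KO cells were clone N13, a clonal line in which CRISPR/Cas9 had been directed at Nup210. H3K4me3 and trimethylated H3 lysine 27 (H3K27me3) were profiled in both lines. Profiles of NUP210 itself, and of the pore complex with an antibody to several of its proteins (NPC), came from the sg-Ctrl line alone. Each condition had 1 library, so no difference between sg-Ctrl and KO has a replicate check, and a clone cannot be told apart from the knockout. All intervals given are 95% intervals that cover counting error only. They are exact, except those of a difference between the log2 ratios of 2 genes, which use a normal approximation. Reads of a peak are not all independent molecules.

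The Hippo pathway is a kinase cascade that restrains growth and answers to cell contact, polarity and the stiffness of the surroundings. LATS1 and LATS2 are the kinases at its end. They phosphorylate YAP (Yap1) and TAZ (Wwtr1), which then stay in the cytoplasm or are degraded. When the cascade is quiet, or when cells are spread on a stiff matrix, YAP and TAZ enter the nucleus and bind the TEAD1 to TEAD4 transcription factors, since they have no DNA-binding domain of their own. The angiomotin-like proteins AMOTL1 and AMOTL2 bind YAP and TAZ at junctions and on actin and can activate LATS. LATS2 and AMOTL2 are also well-known YAP and TAZ target genes. H3K4me3 marks the start sites of active and poised genes, and H3K27me3 is laid down by the Polycomb repressive complex over silent genes.

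The listed peaks of a library held 5866175 to 26811061 reads in all. The KO libraries had been sequenced more deeply than the sg-Ctrl libraries, by 1.27 times for H3K4me3 and 3.16 times for H3K27me3, against the same IgG library. Levels below are therefore scaled reads per kb: the reads of a peak per kb of its width, divided by the depth of the library relative to its IgG. The targeted gene could not serve as a check of the knockout, because a mark at the start of Nup210 does not read a small lesion in its coding part. With 885 reads (sg-Ctrl) and 913 reads (KO) at its start, Nup210 had a log2 ratio of -0.41. The median of all genes was -0.50, and Nup210 lay 0.09 above it. The labelled cell type was checked with markers. All 5 epithelial markers looked at (Epcam, Cdh1, Krt8, Krt18 and Krt19) had an H3K4me3 peak in both lines and no H3K27me3 peak. Of 5 markers of other cell types (Ptprc, Cd3e, Pecam1, Cdh5 and Col2a1), 0 had an H3K4me3 peak and 3 had an H3K27me3 peak in at least 1 line.

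Start site sequences are shown first for genes to which the results return, to show the kind of promoter that the H3K4me3 peaks covered. RefSeq promoter windows (GRCm38.p6, 250 bases before to 50 after a start) were found for 8 of the 10 genes, in 12 windows, and 11 of these lay inside the H3K4me3 peak of both lines. The other was a downstream start of Lats2. TEAD factors bind the letters GGAATG, which read CATTCC on the other strand. The letters, on either strand, were present in 7 of the 12 windows and in at least 1 window of Yap1, Wwtr1, Tead3, Lats2 and Amotl2. Both windows of Wwtr1 hold the same copy. Of all 32851 windows, 14.7% had the letters. With each gene counted by 1 window, 5 of the 8 genes had them, against 11.5% of 8008 genes with a TSS peak in both lists. In the sequences the capitals mark these letters. Each gives the 250 bases that precede the start, 5′ to 3′ on the strand of the gene.
Yap1: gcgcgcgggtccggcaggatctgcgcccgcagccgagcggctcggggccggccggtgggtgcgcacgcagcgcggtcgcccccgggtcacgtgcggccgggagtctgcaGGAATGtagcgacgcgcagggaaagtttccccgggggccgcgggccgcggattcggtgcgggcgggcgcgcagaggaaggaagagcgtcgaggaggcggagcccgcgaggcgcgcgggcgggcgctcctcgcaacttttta
Wwtr1: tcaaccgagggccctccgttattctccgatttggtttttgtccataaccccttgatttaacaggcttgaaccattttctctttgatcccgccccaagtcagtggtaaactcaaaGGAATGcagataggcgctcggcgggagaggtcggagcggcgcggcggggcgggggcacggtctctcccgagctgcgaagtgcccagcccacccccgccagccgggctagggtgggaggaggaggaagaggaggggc
Tead3: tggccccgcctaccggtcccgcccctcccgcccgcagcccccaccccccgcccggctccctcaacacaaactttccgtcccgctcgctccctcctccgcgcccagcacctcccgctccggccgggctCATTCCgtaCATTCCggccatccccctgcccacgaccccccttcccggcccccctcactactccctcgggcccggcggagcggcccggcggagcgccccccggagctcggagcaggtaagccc
Amotl2: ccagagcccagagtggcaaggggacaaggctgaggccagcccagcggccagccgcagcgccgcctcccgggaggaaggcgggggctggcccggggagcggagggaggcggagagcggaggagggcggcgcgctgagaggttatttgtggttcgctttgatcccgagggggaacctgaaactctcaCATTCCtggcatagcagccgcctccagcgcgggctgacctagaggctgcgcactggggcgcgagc
Lats1: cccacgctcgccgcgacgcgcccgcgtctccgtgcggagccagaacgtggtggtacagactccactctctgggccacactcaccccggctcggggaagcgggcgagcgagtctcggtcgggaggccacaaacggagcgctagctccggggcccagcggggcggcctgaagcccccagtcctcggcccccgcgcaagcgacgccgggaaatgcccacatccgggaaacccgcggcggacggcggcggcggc

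The Yap1 sequence ends before the start at chr9:8004596 (minus strand), and the letters begin 141 bases upstream of it. In Wwtr1 (start chr3:57575910, minus strand) they begin 136 bases upstream. Tead3 (start chr17:28350600, minus strand) has 2 copies that begin 123 and 114 bases upstream, and 1 more at base 3 after the start. Amotl2 (start chr9:102717804, plus strand) has the letters 65 bases upstream. Lats1 (start chr10:7681209, plus strand) has none and is shown because NUP210 and NPC peaks lay over its start. In Lats2 (start chr14:57746123, minus strand) the letters began at base 5 after the start. None of the 12 windows, found for 8 of the 10 genes, held the AP-1 letters TGACTCA or TGAGTCA (5.2% of all windows and 3.56% of the 8008 genes). The TATA box letters TATAAA or TTTATA were also absent from them (13.6% and 6.29%). Tead1 and Tead4 had no window and were not looked at. In CpG content the genes lay on both sides of the median of 22 CpG per 300 bases over the 8008 genes. Yap1 had 49 CpG, Lats1 42, Lats2 37 at its main start and 4 at the downstream one, Tead3 25 to 34 and Amotl2 26, while Amotl1 had 21, Wwtr1 19 and 20, and Tead2 13. Such matches describe the sequence and do not show binding.

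All 10 genes had an H3K4me3 peak over the TSS, in sg-Ctrl and in KO, and each had 1 such peak per list. Of all genes with a TSS peak in either list, 96.1% had it in both. In 9 of the 10 genes the scaled level was lower in KO than in sg-Ctrl, which sets them with the great majority of genes, since the ratio was below 1 at 88.7% of the 12197 genes. On the log2 scale the ratio of KO to sg-Ctrl had a median of -0.48 over the 10 genes (range -0.94 to 0.04) and of -0.50 over all genes. Relative to that all-gene median, 5 of the 10 genes were lower and 5 higher. In these units 0 of 10 genes had a ratio of 0.5 or less, against 9.66% of all genes, and 0 had a ratio of 2 or more, against 0.525%.

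Scaling by the reads of the peaks that both lists share, in place of the IgG-based depth, raises every log2 ratio by 0.42 and puts the all-gene median at -0.08. The direction of a single gene between the lines is thus set partly by the scaling. The per-kb log2 ratios of single genes below are therefore given also relative to the median of all genes. No constant scaling moves these relative values.

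**Figure D1:**
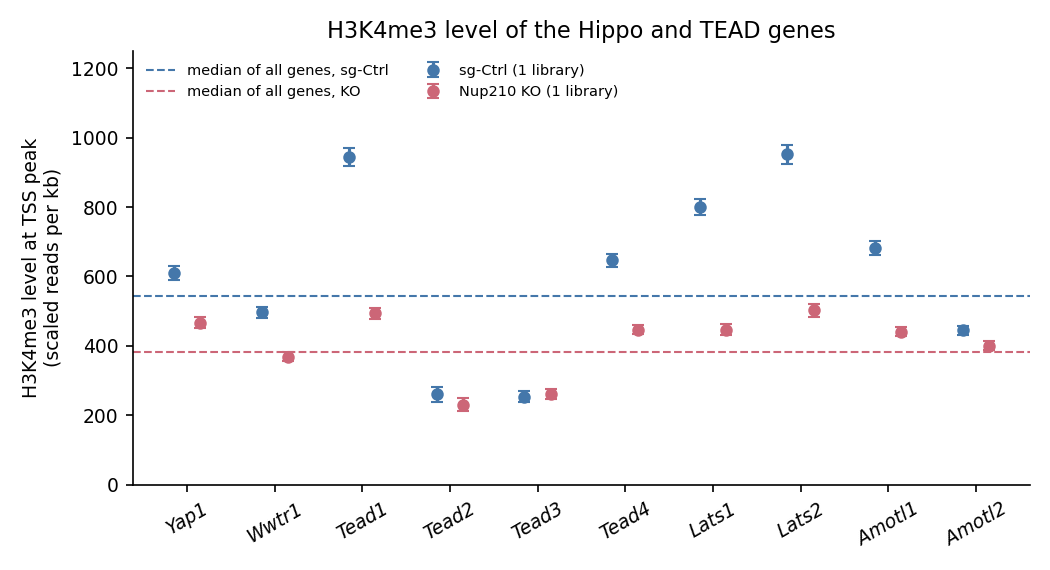
H3K4me3 level (scaled reads per kb of the TSS peak) of the 10 genes in the sg-Ctrl library (blue) and the KO library (red), with 95% Poisson intervals of the reads, and the all-gene medians as dashed lines. Levels span 253 to 951 in sg-Ctrl and 231 to 503 in KO, and Lats2, Tead1 and Lats1 lie farthest apart between the lines.

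YAP and TAZ, the coactivators, kept the middle of the distribution. The Yap1 peak held 3624 sg-Ctrl reads and 3646 KO reads, for levels of 610 (95% interval 590 to 630) and 466 (451 to 482). Its log2 ratio was -0.39 (-0.45 to -0.32), 0.11 above the median of all genes. Wwtr1 held 3476 and 2880 reads, at levels of 496 and 368. Its log2 ratio of -0.43 (-0.50 to -0.36) was 0.07 above the median, and 56.9% of genes had a lower ratio. The difference between the 2 log2 ratios was 0.04 (95% interval -0.05 to 0.14), within counting error. Relative to the median the direction of both turns with the measure, because total scaled reads give -0.34 for Yap1 and -0.62 for Wwtr1 against an all-gene median of -0.32.

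The 4 TEAD genes, which encode the DNA-binding partners, went apart. Tead1 (start chr7:112679320, plus strand) held 5206 sg-Ctrl reads and 3724 KO reads. Its level was 944 (918 to 970) and 493 (478 to 510), a log2 ratio of -0.94 (-0.996 to -0.874) and -0.44 relative to the median. Per kb this was the lowest of the 10, with an interval that overlapped that of Lats2, while Lats2 was lowest in total scaled reads and Amotl1 by the deposited fold. Per kb, 12.9% of all genes had a lower ratio. Tead4 (start chr6:128300813, minus strand), at 4663 and 4094 reads and levels of 646 and 447, had a log2 ratio of -0.53 (-0.59 to -0.47), or -0.03 relative to the median.

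Tead2 and Tead3 had little H3K4me3 in both lines. Tead2 (start chr7:45215753, plus strand) held 552 and 622 reads in a peak of 2.0 kb, at levels of 260 and 231. Its log2 ratio was -0.17 (-0.341 to -0.005), or 0.33 relative to the median. The same peak was also listed for the neighbor Dkkl1, so its reads cannot be assigned to a gene. Tead3 held 966 and 1266 reads, at 253 (237 to 269) and 261 (247 to 276) scaled reads per kb. It was the sole gene of the 10 with a ratio above 1, at a log2 ratio of 0.04 (-0.08 to 0.17), and its interval includes no change. Relative to the all-gene median its log2 ratio was 0.54 higher, and 90.4% of genes had a lower ratio. The difference between Tead1 and Tead3 was -0.98 on the log2 scale (-1.12 to -0.85), and that between Tead1 and Tead4 was -0.40 (-0.49 to -0.32). Between Tead2 and Tead3 it was -0.22 (-0.42 to -0.01). The IgG library had 0 reads in the Tead3 peak in both lists. In the sg-Ctrl list this was so at 4.57% of all genes, but at only 16 of the 6517 with a peak at least as wide. The fold of Tead3 over IgG thus has no bottom and is not used here.

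The LATS kinase genes were among those that stood lowest in KO relative to sg-Ctrl. Lats1 held 4579 sg-Ctrl reads and 3372 KO reads, at levels of 799 (776 to 823) and 447 (432 to 462). Its log2 ratio was -0.84 (-0.90 to -0.77), or -0.34 relative to the median, and 18.7% of genes had a lower ratio. Its peak was also listed for BC020402. Lats2 held 4441 and 2710 reads, at levels of 951 (924 to 980) and 503 (484 to 522), and its log2 ratio was -0.92 (-0.99 to -0.85), or -0.42 relative to the median. The medians of their chromosomes were lower than that of all genes, at -0.63 (chromosome 10, Lats1) and -0.65 (chromosome 14, Lats2). Relative to these, Lats1 was at -0.21 and Lats2 at -0.27, nearer to the median. Tead1, on chromosome 7 with a median of -0.36, was at -0.58 and thus farther from it. The ratios of the 2 kinase genes differed by 0.08 (-0.01 to 0.18), within counting error. Since the Lats2 peak was also narrower in KO, its total scaled reads differed more, with a log2 ratio of -1.06.

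The angiomotin-like genes differed from each other. Amotl1 (start chr9:14615000, minus strand) held 4634 and 4507 reads, at levels of 683 and 440, a log2 ratio of -0.63 (-0.69 to -0.57), or -0.13 relative to the median. Amotl2 held 3960 and 3675 reads, at levels of 444 (431 to 458) and 401 (388 to 414), a log2 ratio of -0.15 (-0.21 to -0.08), or 0.35 relative to the median. The log2 ratio of Amotl1 minus that of Amotl2 was -0.49 (-0.57 to -0.40). Both comparisons move with the width of the peak. In total scaled reads the ratios were -0.39 and -0.45, and the order of the 2 genes turned. The all-gene median of that measure was -0.32, so Amotl2 lay below the median there and above it per kb. By the deposited fold over IgG Amotl1 reached -1.41, with 60 more IgG reads in its wider KO peak (58 in sg-Ctrl and 118 in KO).

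**Figure D2:**
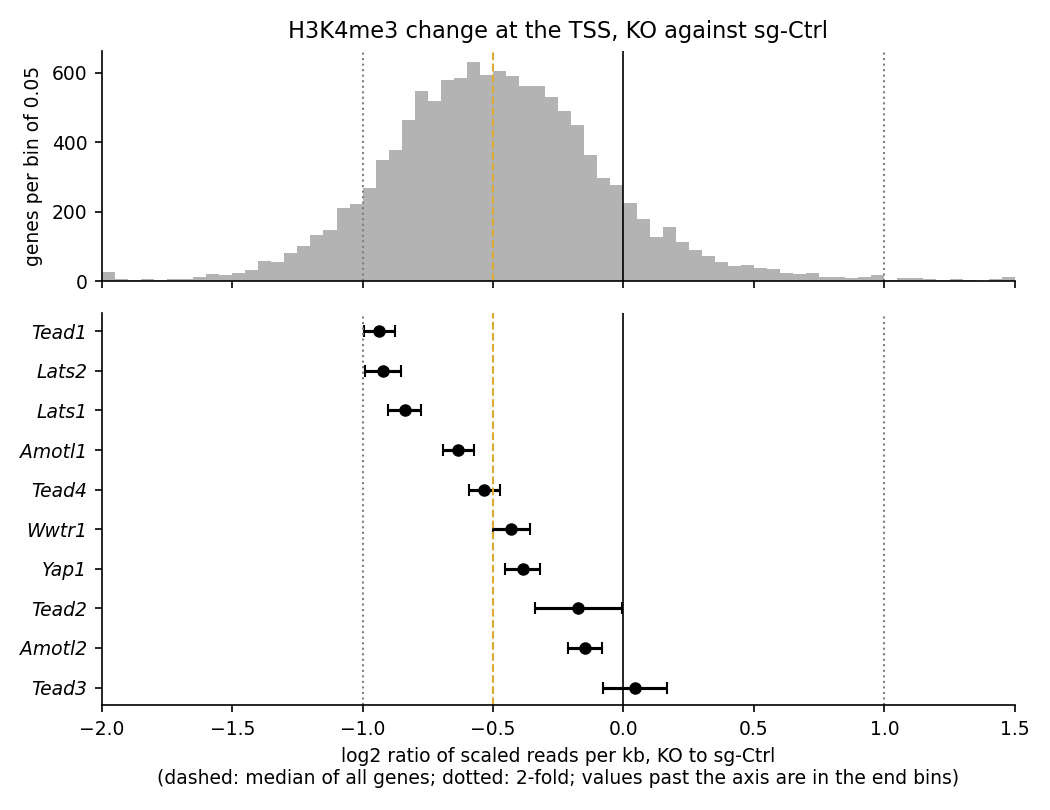
Top, number of genes by H3K4me3 log2 ratio of KO to sg-Ctrl (12197 genes), and bottom, the 10 genes with exact 95% intervals of the read ratio. The genes run from Tead1 at -0.94 to Tead3 at 0.04 and lie on both sides of the all-gene median of -0.50, and none reaches the dotted 2-fold lines.

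The levels of the 10 genes lay closer together in KO. In sg-Ctrl their order was Lats2, Tead1, Lats1, Amotl1, Tead4, Yap1, Wwtr1, Amotl2, Tead2 and Tead3. There the intervals of Lats2 and Tead1, of Amotl1 and Tead4, of Tead4 and Yap1, and of Tead2 and Tead3 overlapped, and other neighbors in the order did not. The highest level was 3.76 times the lowest. In KO it was 2.18 times the lowest, and the order from Lats2 through Tead1, Yap1, Lats1 and Tead4 to Amotl1 had overlapping intervals at every step. Amotl2 stood above Wwtr1 in KO and below it in sg-Ctrl, both times without overlap. Over all genes the spread of levels was also smaller in KO, by another measure: the level that 90% of genes stayed under was 4.60 times the level that 10% stayed under in sg-Ctrl and 3.55 times in KO. With all genes cut into 4 groups of like size by mean level over both libraries, the median log2 ratio was -0.28 in the lowest group, -0.44 and -0.54 in the next, and -0.66 in the highest. Tead2 and Tead3 belonged to the lowest group, and Tead1 and Lats2 to the highest. Relative to the median of its own group, Tead1 was at -0.28, Lats2 at -0.27 and Lats1 at -0.30, and Tead3 was at 0.32 and Amotl2 at 0.30, a comparison chosen after the data were seen.

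The peaks also differed in where they ended. In KO 6 of the 10 peaks reached farther upstream of the TSS than in sg-Ctrl, 1 less far and 3 equally far. Of the 11066 genes with 1 TSS peak per list, 57.1% reached farther upstream in KO. Downstream, into the gene, 7 of the 10 peaks reached less far in KO, 1 farther and 2 equally far, whereas 30.5% of all genes reached less far. Among the 4888 genes whose sg-Ctrl peak was 4.0 kb or wider, 43.0% reached less far downstream, as did 6 of the 8 Hippo and TEAD genes of this width. The Wwtr1 peak lost 1800 bp downstream and gained 1000 bp upstream, so that it covered chr3:57571001-57577600 in sg-Ctrl and chr3:57572801-57578600 in KO. Yap1 likewise lost 600 bp downstream and gained 800 bp upstream. Amotl1 gained 1400 bp upstream, and Amotl2, whose sg-Ctrl peak was the widest of the 10 at 8400 bp, lost 1400 bp downstream. Tead3 had the same edges in both lists. Edges are set in steps of the 200 bp windows of the peak caller, and the KO library was the deeper by 1.27 times, whose part in the edges was not tested.

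**Figure D3:**
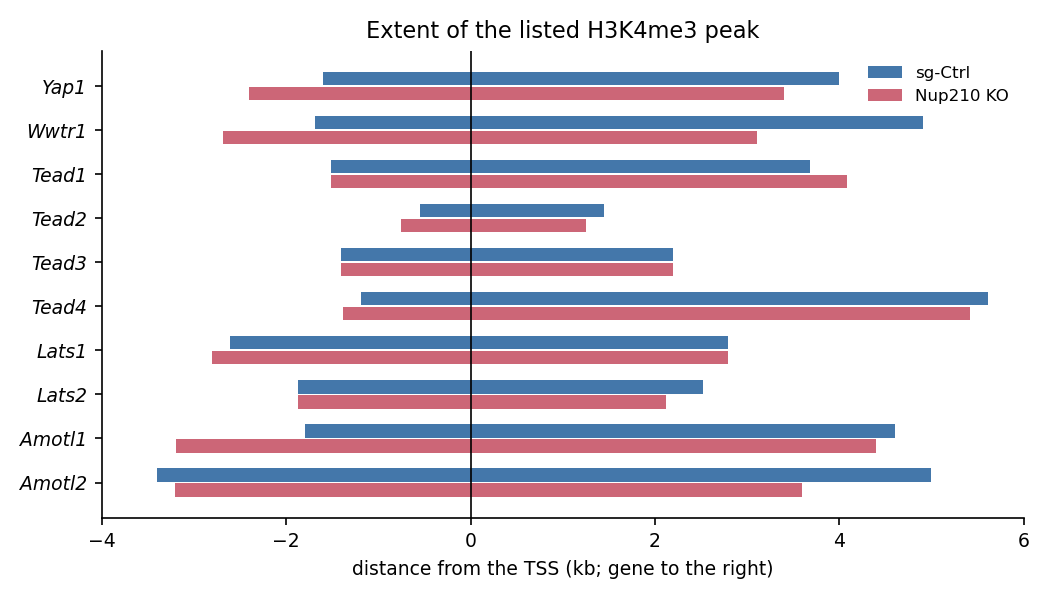
Extent of the listed H3K4me3 peak of each gene in sg-Ctrl (blue) and KO (red), as distance from the TSS in kb, with the gene to the right. In 7 of the 10 genes the KO peak ends nearer to the TSS on the gene side, by 1800 bp in Wwtr1 and 1400 bp in Amotl2, and in 6 it begins farther upstream.

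None of the 10 genes had an H3K27me3 peak on its body, in sg-Ctrl or in KO. Among all 12197 genes with an H3K4me3 peak in both lines, 5.46% had one in sg-Ctrl and 4.3% in KO, so that absence was the usual state of such genes. The covered length was 0 in both lines and could not differ. The nearest listed H3K27me3 peak lay 46.0 to 1183 kb from the gene in sg-Ctrl (median 182 kb) and 56.0 to 1182 kb in KO (median 180 kb). Peaks outside genes were not listed, so a nearer one cannot be told from these files.

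For 3 genes the nearest H3K27me3 peak was within 100 kb. At Amotl1 it lay over Kdm4d, 46.0 kb away in sg-Ctrl (chr9:14453001-14496000) and 56.0 kb away in KO (chr9:14465001-14486000). The peak was 43 kb wide with a fold over IgG of 3.65 in sg-Ctrl, and 21 kb wide with a fold of 1.43 in KO. The nearest NUP210 peak (chr9:14453001-14492000) and the nearest NPC peak (chr9:14453001-14484000) of Amotl1 lay over the same stretch, at folds of 1.17 and 1.12. At Yap1 the nearest H3K27me3 peak lay over AK129341, at 71.4 kb in sg-Ctrl and 70.4 kb in KO and was 38 and 40 kb wide. At Wwtr1 it lay over Gm410, at 76.1 kb and 25 kb wide in sg-Ctrl, and at 93.1 kb and 7 kb wide in KO. At Lats2 the nearest peak, over the growth factor gene Fgf9, was 314 kb away in both lines and was 64 kb wide in sg-Ctrl and 91 kb in KO. The peak next to Lats1, over Zc3h12d, had the same edges in both lists. The KO library being 3.16 times as deep, widths of single peaks were not compared further.

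NUP210 was listed on Wwtr1 and Lats1, 2 of the 10 genes, against 26.3% of all genes. NPC was listed on Yap1, Wwtr1 and Lats1, 3 of 10, against 24.9%. The remaining 7 genes had neither. NUP210 and NPC peaks that overlapped were found on 1 of the 10, Lats1, against 20.3% of all genes. Long genes were listed more often, as 57.9% of genes of 50 kb or more had a NUP210 peak and 17.1% of shorter ones, and 55.6% and 15.9% had an NPC peak. Of the 6 members of 50 kb or more 1 had a NUP210 peak and 2 an NPC peak, and of the 4 shorter ones 1 had each. At 227 kb Tead1 was the longest of the 10 and was in neither list, with its nearest NUP210 peak 415 kb away.

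Over Lats1 both peaks covered the start site. The NUP210 peak (chr10:7679001-7689000) held 202 reads against 149 in IgG, a fold of 1.34 (95% interval 1.08 to 1.67). The NPC peak (chr10:7676001-7696000) held 361 reads against 500 in a deeper IgG library, a fold of 1.19 (1.04 to 1.37). The NUP210 peak lay wholly inside the NPC peak, and 5.0 kb of it overlapped the H3K4me3 peak in each line, which is 92.6% of that peak in sg-Ctrl and 89.3% in KO. The NUP210 peak was also listed for BC020402 and the NPC peak for BC020402 and Nup43, the latter a gene for another nuclear pore protein.

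On Wwtr1 the peaks lay apart. The NUP210 peak (chr3:57535001-57553000) began 22.9 kb and ended 40.9 kb downstream of the TSS, and held 357 reads against 250 in IgG, a fold of 1.41 (1.198 to 1.667). An NPC peak of 149 reads (chr3:57566001-57572000) lay between it and the start, 3.91 to 9.91 kb downstream of the TSS, at a fold of 1.54 (1.22 to 1.93). It overlapped 1.0 kb of the sg-Ctrl H3K4me3 peak and lay 0.8 kb from the KO peak, whose edge had moved. A second NPC peak of 105 reads (chr3:57452001-57457000) covered the end of the gene, at a fold of 1.72 (1.29 to 2.28). The gaps between the NUP210 peak and the NPC peaks were 13 and 78 kb. The Yap1 NPC peak (chr9:7984001-7991000), 13.6 to 20.6 kb downstream of the TSS, held 181 reads against 250 in IgG. Its fold was 1.19 (0.98 to 1.45), an interval that includes no enrichment. Exons and introns under these peaks were not analysed here.

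These folds were low beside those of H3K4me3, which ran from 28.3 to 127 in sg-Ctrl over the 9 genes with IgG reads and from 21.6 to 73.6 in KO. Low folds were general in both lists, whose median was 1.19 for NUP210 and 1.10 for NPC. The false discovery rate (FDR) given by the caller was above 0.05 for 31.0% of the distinct NUP210 peaks and 48.3% of the distinct NPC peaks. With a fold of 1.5 or more asked for, 0 of the 10 genes kept a NUP210 peak and 1, Wwtr1, kept an NPC peak, against 5.32% and 2.13% of all genes.

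**Figure D4:**
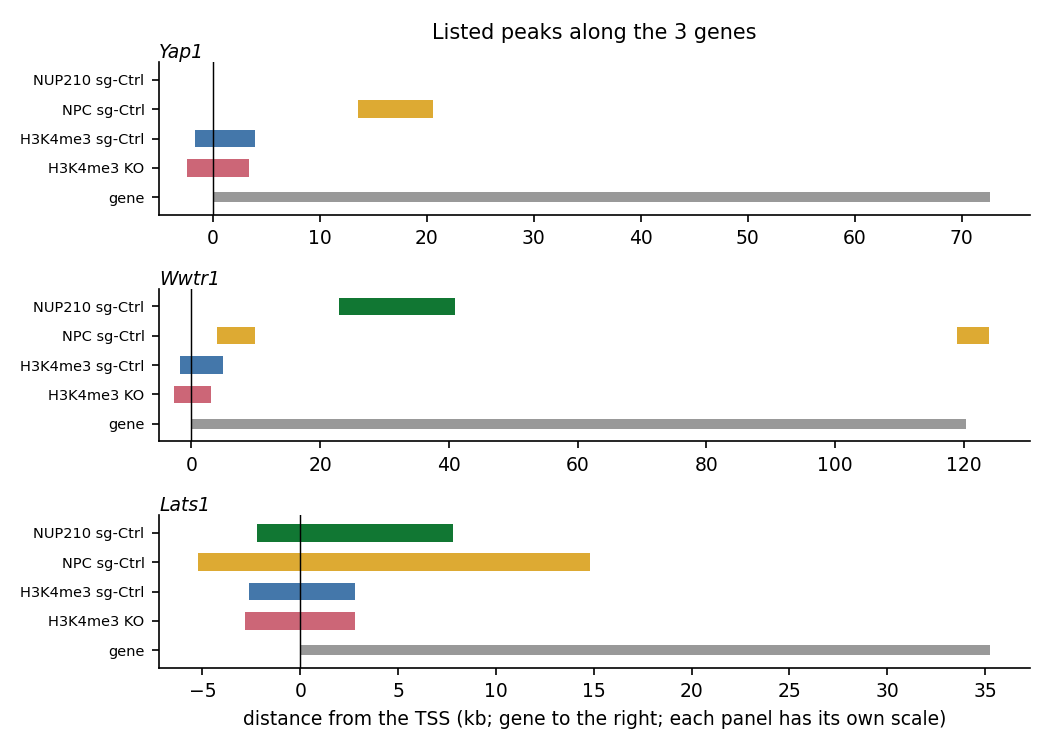
Listed peaks on Yap1, Wwtr1 and Lats1 by distance from the TSS in kb, with the gene in grey and a scale of its own in each panel. The NUP210 peak of Lats1 lies inside its NPC peak and over the start, while on Wwtr1 it begins 22.9 kb into the gene, and Yap1 has an NPC peak but no NUP210 peak.

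Another 60 genes of the pathway were taken as context: the upstream kinases and scaffolds, cofactors of TEAD and regulators of YAP, polarity and cadherin inputs, and YAP and TAZ target genes. They had an H3K4me3 TSS peak in both lists in 49 cases, although for Stk4 the densest peaks of the lists did not overlap. Their median log2 ratio was -0.47, 43 were below 0, and 22 were below the median of all genes. In 5 of the 49 (10.2%, against 9.66% of all genes) the ratio was 0.5 or less, and in 0 it was 2 or more. Relative to the all-gene median, 0 of the 49 were lower by 2-fold.

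The lowest ratios belonged to target genes. Ankrd1, a cardiac ankyrin repeat gene and a standard YAP target, held 8204 sg-Ctrl reads and 2625 KO reads, with levels of 1105 and 406 and a log2 ratio of -1.44 (-1.51 to -1.38). Cyr61, which encodes a matricellular protein and is another standard target, held 3705 and 1533 reads, levels of 472 and 178 and a log2 ratio of -1.41 (-1.496 to -1.323). Taok3, a kinase upstream in the cascade, followed at -1.21 (-1.29 to -1.13), though at -0.63 in total scaled reads, since its peak was 2400 bp wide in sg-Ctrl and 3600 bp in KO. As a group the targets did not stand lower, with a median of -0.48 over 16 genes and 2 with a ratio of 0.5 or less. Ctgf, also a standard target and named here after its values were seen, was at -0.63 (-0.78 to -0.47) per kb, at -1.28 in total scaled reads and at 0.28 by the deposited fold over IgG, with a peak of 4400 bp in sg-Ctrl and 2800 bp in KO. Relative to the all-gene median, the per-kb log2 ratios were -0.95 for Ankrd1, -0.91 for Cyr61, -0.71 for Taok3 and -0.13 for Ctgf.

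The highest ratios were those of Fjx1, Cdh1 and Wwc1. Fjx1, a regulator of Fat and Dachsous cadherins, held only 68 sg-Ctrl reads and 233 KO reads, at a log2 ratio of 0.97 (0.58 to 1.38). The ratio of Fjx1 was 1.43 in total scaled reads and 0.35 by the deposited fold over IgG. The H3K4me3 peak of Fjx1 was 1600 bp wide in sg-Ctrl and 2200 bp in KO. Fjx1 also had an H3K27me3 peak over 2.43 kb in sg-Ctrl and none in KO. Cdh1 (E-cadherin) had a log2 ratio of 0.67 (0.61 to 0.73) at 4533 and 4666 reads, in a peak 9400 bp wide in sg-Ctrl and 4800 bp wide in KO. In total scaled reads its ratio turned to -0.30. Wwc1, the KIBRA scaffold that helps to activate LATS, was at 0.29 (0.198 to 0.379) per kb and at -0.09 in total scaled reads. Relative to the all-gene median, the per-kb log2 ratios were 1.47 for Fjx1, 1.17 for Cdh1 and 0.79 for Wwc1.

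**Figure D5:**
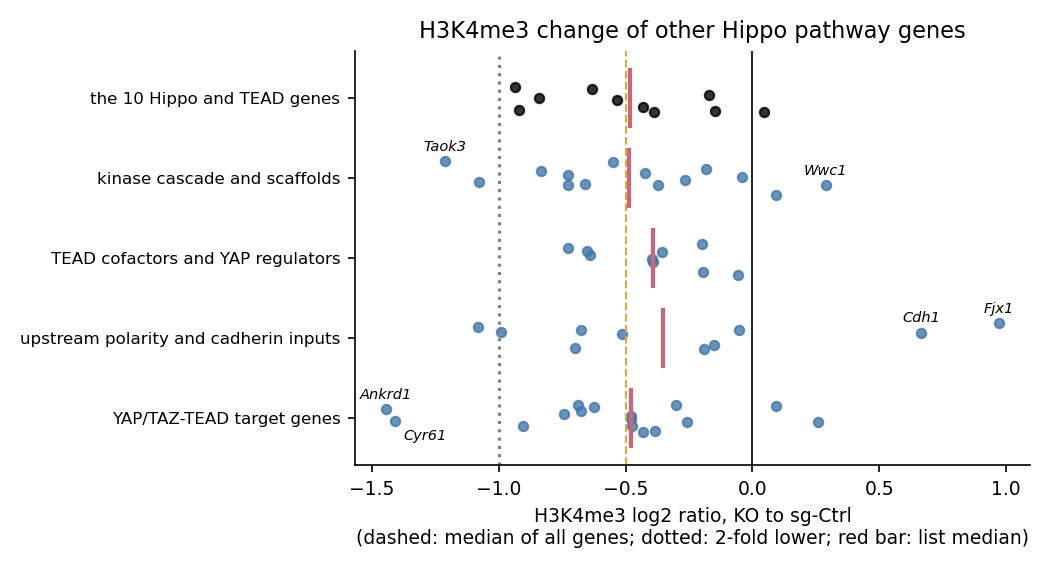
H3K4me3 log2 ratio of KO to sg-Ctrl for the 10 genes (black) and the 49 other pathway genes with a peak in both lists (blue), by list, with list medians as red bars. List medians run from -0.49 to -0.35 around the all-gene median of -0.50 (dashed), and Ankrd1 and Cyr61 lie lowest.

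H3K27me3, absent from the 10 genes, was listed on 5 of the 60 others in sg-Ctrl and on 4 in KO, against 26.8% and 27.6% of the 18562 genes in any list. Of the 60, 4 were in no list, so shares of the genes in any list are not a like comparison. Of the 49 with H3K4me3 in both lists, 1 (Fjx1) had an H3K27me3 peak, in sg-Ctrl alone. The share of all genes with H3K4me3 in both lists was 5.46% in sg-Ctrl. Fat4, an atypical cadherin, was covered over 85.0 kb in sg-Ctrl and 103 kb in KO, and Rbms3 over 23.3 and 65.3 kb. Dchs1, the cadherin partner of Fat4, was covered over 5.55 and 7.55 kb. Vgll1, a TEAD cofactor, was covered over 10.4 kb in KO and not listed in sg-Ctrl. Vgll2 was covered over 4.47 kb in sg-Ctrl and not listed in KO. These H3K27me3 lengths come from lists of unequal sequencing depth, 3.16 times greater in KO. The part of depth in the differences between the lines was not tested. Fat4, Rbms3, Dchs1, Vgll1 and Vgll2 had no H3K4me3 TSS peak in both lists. NUP210 was listed on 19 of the 60 and NPC on 21, against 33.9% and 30.8% of the genes in any list. Among the 49 the shares were 32.7% and 34.7%, against 26.3% and 24.9% of the genes with H3K4me3 in both lines. The longest NUP210 cover was 221 kb on Stk3, the MST2 kinase that activates LATS, then 208 kb on Asap1 and 189 kb on Pard3. The longest NPC cover was 319 kb on Pard3, 274 kb on Asap1 and 239 kb on Stk3. The highest NUP210 fold of any peak on these genes was 1.24 on Stk3, 1.08 on Asap1 and 2.53 on Pard3. The highest NPC fold was 1.60 on Pard3, 1.04 on Stk3 and 0.98 on Asap1, so that the long NPC cover of Asap1 held no more reads than scaled IgG.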

How the data were processed

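ChIP-seq was analysed from 6 deposited peak lists of 4T1 cells (H3K27me3 and H3K4me3 in sg-Ctrl and KO, NUP210 and NPC in sg-Ctrl). RNA-seq samples (4) and IgG libraries were not analysed here on their own. Peaks were called by the authors with SICER against IgG, per library, with a window size of 200 bp (H3K4me3) or 1000 bp (the other profiles), and each deposited list gives peaks on gene bodies, or for H3K4me3 within 4 kb of the TSS. The deposited lists give read counts of ChIP and IgG per peak, a p-value, a fold ratio over IgG and an FDR. Labels name Bowtie2 and Picard, and the builds mm9, mm10 and NCBIM37 without a role. Listed TSSs lay within 50 bp of a RefSeq GRCm38.p6 start at 89.8% of 9080 genes, so coordinates are given as GRCm38, 1-based.

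The relative depth of a library was recovered from counts and fold (fold uses 0.25 reads where IgG has 0). For each gene the TSS peak of highest density was used. With 1 library per condition no model was fitted and no p-value is given. Ratios of 0.5 or less and 2 or more were counted, and intervals are Poisson or conditional binomial (scipy 1.17.1), or normal for differences between log2 ratios. Peaks overlapped if they shared 1 bp. The count of ratios of 0.5 or less was also run on simulated read counts. The genes set lower in them lay well under the limit of 0.5, so ratios near 0.5 were not covered. The simulated counts kept the same peaks and widths in both libraries, so changes of width or a shift of all genes were not covered either. The 10 genes and all gene lists were chosen with earlier results of these data known. All 10 genes were named, of other pathway genes the 3 lowest and 3 highest H3K4me3 ratios with 100 or more reads in the higher library, the targeted gene Nup210, and up to 3 genes per list and direction with the largest cover, or change in cover, in the other profiles. Alternatives were other scalings, total reads, the deposited fold, all TSS peaks summed, and stricter FDR and fold limits.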

Additional observations from a re-analysis of the deposited data

How the results depend on the processing

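The median H3K4me3 log2 ratio of the 10 genes, -0.48 as reported, was -0.059 when scaled by shared peaks, 0.018 relative to the median of all genes, 0.056 relative to the median of the chromosome and 0.0086 relative to genes of like level (this last chosen after seeing the data). It was -0.49 in total scaled reads, -0.54 by the deposited fold over IgG, and -0.48 with all TSS peaks summed or with an FDR of at most 0.01. The count of the 10 genes with a ratio of 0.5 or less, 0 as reported, was 1 in total scaled reads (Lats2) and 2 by the deposited fold (Lats2 and Amotl1), and 0 under the other settings. Of the other pathway genes, 5 as reported, the count was 1 with shared-peak scaling, 0 relative to all genes or to the chromosome, 1 relative to genes of like level, and between 4 and 7 under the rest. The filters tried for H3K27me3 only remove peaks, so its count of 0 on the 10 genes could not change. The count with a NUP210 peak, 2 as reported, was 0 at a fold over IgG of at least 1.5 or 2, where 5.32% and 1.35% of all genes kept one. The count with an NPC peak, 3 as reported, was 2 at an FDR of at most 0.01, 1 at a fold of at least 1.5 and 0 at 2, where 13.7%, 2.13% and 0.189% of all genes kept one. The overlap at Lats1 was 0 at either fold limit, and held at an FDR of at most 0.01 and at an overlap of at least 0.5 of the NUP210 peak. The cause of these shifts was not tested beyond what each setting does by construction. No paired analysis was possible because each ChIP-seq condition had 1 library and no result comes from a test. Libraries could not be left out in turn for the same reason. At the depth of these lists the interval of a log2 ratio was widest at Tead2, and folds of the NUP210 and NPC peaks near 1.2 lay close to counting error.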
